A study of Mus musculus with 6 samples.

Results

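The genes described here are the secreted and membrane-bound axon guidance cues and their receptors. They are the semaphorins with their plexin and neuropilin receptors, the Slits with the Robos, the netrins with Dcc and the Unc5 proteins, and the ephrins with the Eph receptors. Every probe set annotated to exactly 1 gene symbol of these families was taken, which gave 150 of the 45037 probe sets that were not array controls. They read 67 of the 18193 genes with such a probe set. Of the probe sets, 76 belong to 34 ligand genes and 74 to 33 receptor genes. A further gene symbol of these families in RefSeq was not analysed here.

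The study used Affymetrix expression arrays on total RNA from brain tissue with the cerebellum removed, 1 array per sample. Knockout samples, labelled Gb5ko, are replicates 1 to 3 and came from Gb5-deficient mice. Wild-type samples, labelled Gb5wt, are replicates 4 to 6. Gb5 is the product of Gnb5, a G protein beta subunit that pairs with R7 RGS proteins. Littermates matched for age and sex are named in the labels, and the series text calls the replicates biological. The sources used here do not give the construction of the allele, the strain, the ages or the sex of each animal. No agent was given to either group, per the labels.

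Guidance receptors sit on the growth cone and turn attractive or repulsive cues into local changes of actin and microtubules. Netrins attract through Dcc and repel through Unc5 proteins, Slits repel through Robos, and class 3 semaphorins act through complexes of neuropilins and plexins. A ephrins are anchored to the membrane by a lipid and B ephrins cross it, so that Eph and ephrin contacts can signal into both cells. In the mature brain many of these proteins are found at synapses, on glia and on blood vessels.

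Values are log2 expression from RMA, with 1 value per probe set and array. A log2 difference of 1 is a doubling, and differences are given as Gb5ko minus Gb5wt with the standard error (SE) of the limma fit. Gnb5 itself read 3.67, 3.00 and 3.56 in the knockouts against 8.79, 8.98 and 9.30 in the wild types. Neuronal markers were high in all arrays, with mean levels from 9.77 to 12.9 over 7 genes, and of the cerebellar markers the granule cell genes Gabra6 and Cbln3 had mean levels of 3.33 and 4.32. The other cerebellar markers, Cbln1, Calb1 and Pcp2 read from 8.51 to 12.3 in all arrays, and 4 of the 5 read higher in knockouts (median 0.30). Some arrays stood apart in other genes. Xist, which female cells express, read 10.65, 8.31 and 10.62 in the knockouts against 4.96, 10.81 and 10.70 in the wild types. The Y-linked gene Eif2s3y read 2.96, 11.28 and 6.97 against 11.26, 6.05 and 4.05. Wild-type replicate 4 alone had low Xist, and knockout replicate 2 was high for both genes. These readings differ between the arrays of each group, their part in the results was not tested, and n counts arrays. The pituitary gene Gh read 10.6 in knockout replicate 3 and from 4.20 to 6.21 in the other arrays. Knockout replicate 1 was the highest or lowest of its group at 75.3% of all probe sets and at 77.3% of guidance probe sets, and wild-type replicate 4 at 73.7% and 76.0%. The other arrays were so at 56.0% to 68.0% of guidance probe sets.

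No guidance probe set passed the threshold of the comparison. With limma and Benjamini-Hochberg adjustment over all probe sets, 0 of 150 had an adjusted p under 0.05, where 0.0266% of all probe sets did. The smallest adjusted p of a guidance probe set was 0.193. At an unadjusted p under 0.05 there were 20, 13.3% of the 150, against 14.4% of all probe sets. Of these, 12 were higher in knockouts (8%, against 8.09% of all) and 8 were lower (5.33% against 6.33%). The values of the 3 knockouts lay wholly above those of the wild types at 16 guidance probe sets (10.7%, where 12.5% of all probe sets did so) and wholly below at 10 (6.67%, against 8.95%). By these counts guidance probe sets differed between the genotypes about as often as probe sets in general.

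Sizes were small as well. The largest absolute difference among the 150 was 0.50, and every 95% interval lay between -1.05 and 0.90. The median SE of a difference was 0.128, and 0.123 over all probe sets. The difference was above 0 at 92 of the 150 (61.3%), against 55.5% of all probe sets. Without knockout replicate 1, 7 probe sets had an unadjusted p under 0.05, 4 higher and 3 lower, and 6 of them were among the 20. In that fit 9.74% of all probe sets were under 0.05. Without knockout replicate 2 there were 18 higher and 9 lower, 18 of them among the 20, where 15.0% of all probe sets were under 0.05. The lower count was 5 without knockout replicate 3 and 4 without either wild-type replicate 4 or 6. In either direction, 19, 12 and 15 of the 150 were then under 0.05, in that order. The shares of all probe sets under 0.05 in either direction were 14.9%, 9.93% and 11.7%. At 5 probe sets the unadjusted p stayed under 0.05 with any 1 of the 6 arrays left out. These belong to Sema3d, Sema3c, Efna3, Sema4a and Sema4g, and they were singled out after their values were seen. The share of all probe sets that stayed under 0.05 in this way is not given here, so this count has no background beside it.

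**Figure D1:**
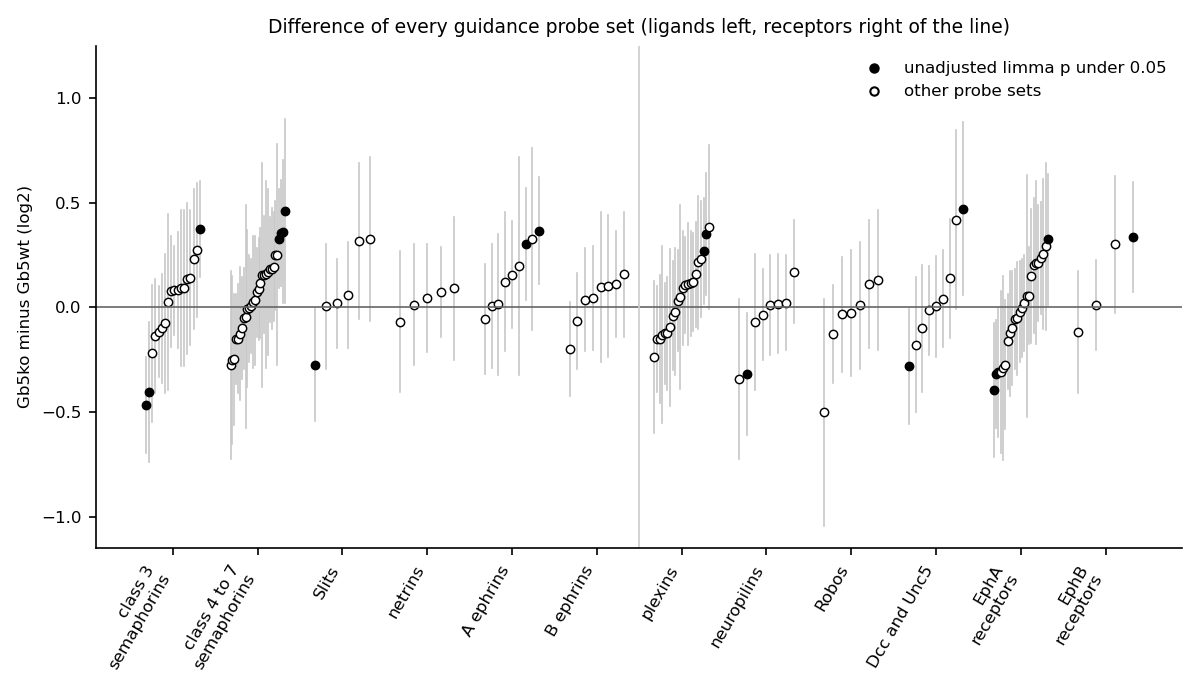
Difference (Gb5ko minus Gb5wt, log2, vertical axis) of each of the 150 guidance probe sets by family, ligands left and receptors right of the vertical line, with the 95% interval of the limma fit as a grey bar. Filled points are the 20 with an unadjusted p under 0.05, and points of all families lie on both sides of 0 within 0.50.

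Class 3 semaphorins, the secreted repellents, held the guidance probe set with the smallest p. Sema3d read 7.12, 7.03 and 7.13 in the knockouts against 7.67, 7.47 and 7.55 in the wild types. Every knockout value lay below every wild-type value. The difference was -0.47 ± 0.101 (SE), 1.38-fold lower, with an unadjusted p of 0.00126 and a limma adjusted p of 0.193, and it ran from -0.51 to -0.41 with 1 array left out. A second Sema3d probe set was dim, at a mean level of 2.97, and differed by -0.10 ± 0.116. Sema3e, the ligand of plexin D1, differed by -0.40 ± 0.148 at its brightest probe set, with 8.02, 7.96 and 7.85 in the knockouts against 8.63, 8.04 and 8.37 in the wild types. The groups did not overlap there. Without wild-type replicate 4 the Sema3e difference was -0.26.

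Sema3a, the classical collapsing factor for sensory growth cones, barely differed. Its brightest probe set read 9.98, 10.06 and 10.10 in the knockouts against 9.95, 9.97 and 9.97 in the wild types, a difference of 0.08 ± 0.0948 (95% interval -0.13 to 0.29). The groups did not overlap, but they were separated by far less than the interval's width. Sema3c read 4.77, 4.76 and 4.58 in the knockouts against 4.37, 4.32 and 4.30 in the wild types at its dim probe set, a difference of 0.37 ± 0.101 with an adjusted p of 0.222. At its bright probe set, with a mean level of 8.63, Sema3c differed by -0.12 ± 0.0965. Brightest probe sets of Sema3b, Sema3f and Sema3g differed by 0.27, 0.08 and 0.02.

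Membrane-bound and other semaphorins of classes 4 to 7 were represented by 13 genes and 30 probe sets. At an unadjusted p under 0.05, 4 were higher in knockouts and 0 lower, 13.3% of the 30, against 14.4% of all probe sets in either direction and 8.09% higher. Sema4g, a transmembrane semaphorin, read 10.25, 10.02 and 9.94 in the knockouts against 9.66, 9.74 and 9.74 in the wild types. Knockouts lay wholly above wild types, by 0.36 ± 0.112 (adjusted p = 0.254). Sema4a, also transmembrane, read 8.85, 8.60 and 8.75 against 8.39, 8.36 and 8.46, a difference of 0.33 ± 0.105 (adjusted p = 0.257). Its brighter probe set differed by 0.18 ± 0.111, in the same direction.

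Sema5b, with thrombospondin repeats outside the cell, had knockouts above wild types at both probe sets. The dimmer read 6.52, 6.32 and 6.26 in the knockouts against 5.69, 6.11 and 6.22 in the wild types, a difference of 0.36 ± 0.152. The brighter differed by 0.25 ± 0.115. Neither passed, with limma adjusted p values of 0.326 and 0.36. Without wild-type replicate 4 the dimmer probe set differed by only 0.20. The remaining genes of these classes, read by their brightest probe sets, differed by -0.15 for Sema5a to 0.25 for Sema6c.

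Among Slits, the large secreted ligands of Robo receptors, Slit2 was flat at its bright probe set. It read 10.27, 10.25 and 10.23 in the knockouts against 10.26, 10.28 and 10.17 in the wild types, a difference of 0.02 ± 0.0944 (95% interval -0.20 to 0.23). A dim Slit2 probe set, with group means of 4.74 and 5.02, differed by -0.27 ± 0.119 (unadjusted p = 0.0478, adjusted p = 0.341), and without wild-type replicate 6 by -0.17. Slit3 differed by 0.32 ± 0.164, and Slit1 by 0.06 at its brighter and 0.33 at its dimmer probe set. In both Slit3 and the dimmer Slit1 probe set, knockout replicate 1 was the highest of all 6 arrays, at 7.15 and 6.76.

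Of only 5 netrin probe sets, 0 had an unadjusted p under 0.05, where 14.4% of all probe sets did. Ntn1, the attractant of commissural axons, read 6.01, 5.45 and 5.64 in the knockouts against 5.65, 5.46 and 5.71 in the wild types, so that the groups overlapped (difference 0.09 ± 0.151, 95% interval -0.25 to 0.43). Its other probe set was near the bottom of the scale, between 2.67 and 2.85 in all arrays. Ntn4, a laminin-like netrin of basement membranes, differed by 0.04 ± 0.114, and Ntn3 by 0.01 ± 0.127. For the brightest probe sets of Ntn1 and Ntn4 the sign turned when single arrays were left out.

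A ephrins, which are lipid-anchored ligands of EphA receptors, had a positive difference in all 5 genes at the brightest probe set, with a median of 0.16. Of all genes read the same way 59.9% were positive. Over all 9 A ephrin probe sets 8 were above 0, and the dimmer Efna2 probe set differed by -0.06 ± 0.116. With 1 array left out, 4 or 5 of the A ephrin genes were positive at the brightest probe set. The median was 0.14 without knockout replicate 1 and 0.10 without wild-type replicate 4. Efna3 was the clearest of them. It read 9.61, 9.28 and 9.36 in the knockouts against 9.08, 9.05 and 9.02 in the wild types, with all knockouts above all wild types. The difference was 0.37 ± 0.113, 1.29-fold, with an unadjusted p of 0.0102 and a limma adjusted p of 0.25. The second Efna3 probe set also had knockouts above wild types, at 8.44, 8.17 and 8.21 against 8.08, 7.83 and 8.02, a difference of 0.30 ± 0.118. Efna3 was the only guidance gene with more than 1 probe set at an unadjusted p under 0.05 in the same direction. Efna1 differed by 0.33 ± 0.192, Efna5 by 0.16 ± 0.114, Efna2 by 0.12 ± 0.147 (-0.0049 without wild-type replicate 6) and the dim Efna4 by 0.02 ± 0.149, all with overlapping groups.

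B ephrins, the transmembrane ligands, did not move together. Efnb2, which marks arterial endothelium and acts at synapses, read 10.16, 10.20 and 10.22 in the knockouts against 10.46, 10.44 and 10.29 in the wild types. Knockouts lay below wild types by 0.20 on average (-0.20 ± 0.099, adjusted p = 0.385). Efnb1 and Efnb3 differed by 0.10 ± 0.159 and 0.11 ± 0.112, with overlapping groups. Of only 8 B ephrin probe sets, 0 had an unadjusted p under 0.05, where 14.4% of all probe sets did.

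**Figure D2:**
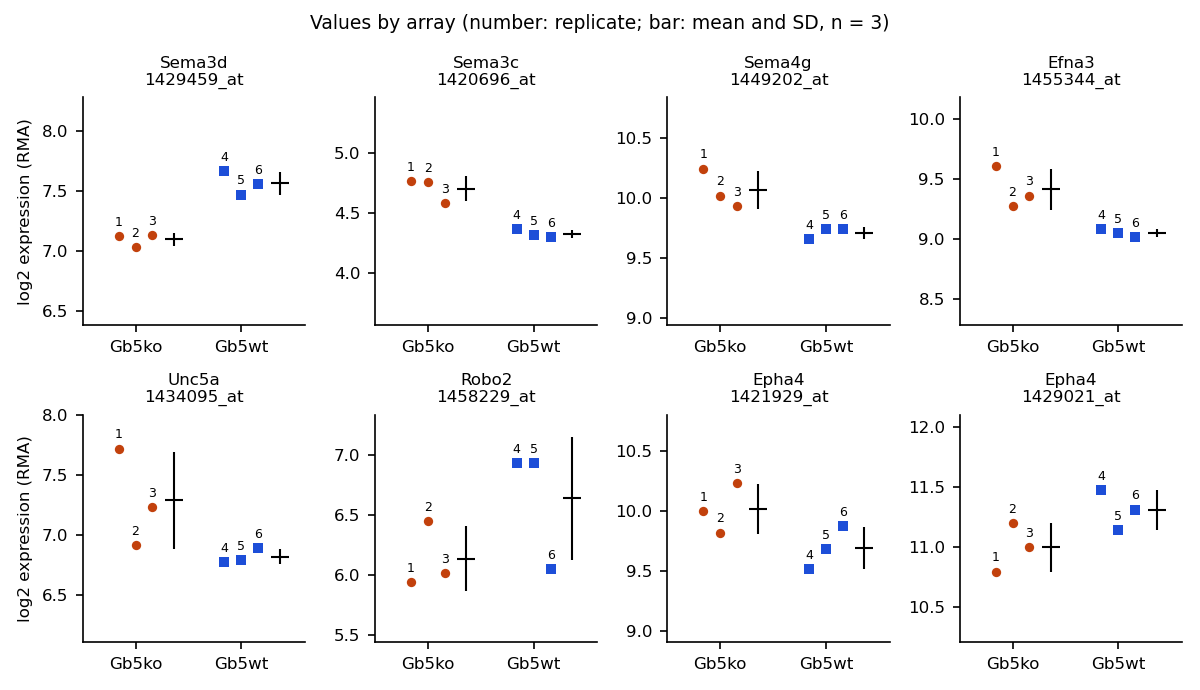
Log2 expression in each array for 8 guidance probe sets, with the replicate number above each point and the mean ± SD (n = 3) beside each group; every panel spans the same number of log2 units. Groups are apart for Sema3d, Sema3c, Sema4g, Efna3 and Unc5a and overlap for Robo2 and both Epha4 probe sets.

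Plexins, which carry the semaphorin signal into the cell, had a positive difference in 7 of 9 genes at the brightest probe set, with a median of 0.21. Without knockout replicate 1 the median was 0.10, with 6 of 9 positive. Over all 22 plexin probe sets the median was 0.07 with 13 above 0 (59.1%). Plxna4, a partner of neuropilin 1 in sensing Sema3a, read 7.16, 6.89 and 7.33 in the knockouts against 6.82, 6.69 and 6.81 in the wild types. All knockouts lay above the wild types, by 0.35 ± 0.129 on average (adjusted p = 0.281). The other Plxna4 probe set, at a mean level of 5.82, differed by 0.05. Plxnb2, a receptor of class 4 semaphorins, differed by 0.38 ± 0.174 with 8.35, 7.81 and 7.76 against 7.37, 7.75 and 7.65. Knockout replicate 1 was the highest array, and the difference without it was 0.19. Plxna1 differed by 0.27 ± 0.112 at its bright probe set, and Plxna2, with the highest level of a plexin probe set, by 0.03 ± 0.106. Plxnb3, expressed by oligodendrocytes, differed by -0.15 ± 0.135 and -0.24 ± 0.16 at its probe sets, and the brightest of 6 for Plxnc1 by -0.04 ± 0.115.

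Neuropilins lack a signalling domain of their own and bind class 3 semaphorins and VEGF. Nrp1 read 9.69, 10.13 and 10.15 in the knockouts against 10.01, 10.20 and 9.97 in the wild types at its brightest probe set, with overlapping groups and a difference of -0.07 ± 0.144 (95% interval -0.40 to 0.25). Another Nrp1 probe set read 8.39, 8.74 and 8.41 against 8.98, 8.76 and 8.75. There every knockout lay below the wild types, by -0.32 ± 0.129 on average (adjusted p = 0.316). A dimmer one differed by -0.34 ± 0.169, and by -0.15 without knockout replicate 1. The remaining Nrp1 probe set, at a mean level of 9.58, differed by 0.02 ± 0.105. The brightest ran from -0.15 to 0.08 with 1 array left out. Nrp2 differed by 0.02 ± 0.101 at its brightest probe set and by -0.04 to 0.17 at the others.

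Robo receptors had 0 of only 7 probe sets at an unadjusted p under 0.05, where 14.4% of all probe sets were. Robo2 had the largest absolute difference of all 150, yet its groups overlapped. It read 5.95, 6.45 and 6.02 in the knockouts against 6.94, 6.94 and 6.05 in the wild types, so that wild-type replicate 6 lay among the knockouts. The difference was -0.50 ± 0.24 (adjusted p = 0.373), and it ran from -0.80 to -0.35 with 1 array left out. Robo1, the main Slit receptor of cortical axons with Robo2, differed by -0.13 ± 0.104 at its brightest probe set. The values were 10.01, 10.14 and 10.04 against 10.31, 10.09 and 10.18. The other Robo1 probe sets, at mean levels of 8.37 and 4.09, differed by 0.11 ± 0.136 and 0.13 ± 0.148. Robo3 and the endothelial Robo4 differed by -0.03 ± 0.133 and 0.01 ± 0.134.

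Dcc, the attractive netrin receptor, read 9.12, 9.47 and 9.35 in the knockouts against 9.63, 9.27 and 9.35 in the wild types at its brightest probe set. The groups overlapped (-0.10 ± 0.134, 95% interval -0.40 to 0.20). A dimmer Dcc probe set read 6.50, 6.64 and 6.38 against 6.95, 6.61 and 6.81, a difference of -0.28 ± 0.122 (unadjusted p = 0.0459, limma adjusted p = 0.336), also with overlap. Of the repulsive netrin receptors, Unc5a had a high value in 1 array. It read 7.72, 6.91 and 7.23 in the knockouts against 6.77, 6.79 and 6.89 in the wild types, a difference of 0.47 ± 0.183 with an adjusted p of 0.3. Knockouts lay above wild types, but without knockout replicate 1 the difference was 0.25. Unc5c and Unc5d, both bright, differed by -0.01 ± 0.0943 and 0.00 ± 0.106 (95% intervals -0.23 to 0.20 and -0.23 to 0.24), and the dim Unc5b by -0.18 ± 0.143.

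EphA receptors, tyrosine kinases that bind A ephrins, had a negative difference in 7 of 9 genes at the brightest probe set, with a median of -0.16. With 1 array left out, 2 to 4 of the 9 were above 0, 4 of them without wild-type replicate 5, and medians ran from -0.20 to -0.13. Over all 24 EphA probe sets the median was -0.01 with 11 above 0, and 1 of 5 genes with several probe sets had the same sign at all of them. By pairs of probe sets within those genes, 15 of 31 (48.4%) had the same sign. Epha3 read 7.97, 8.23 and 8.27 in the knockouts against 8.49, 8.41 and 8.53 in the wild types. Knockouts lay below wild types by -0.32 ± 0.114 on average (adjusted p = 0.276). Epha7 differed by -0.39 ± 0.141 at the probe set with its smallest p, where the values were 7.46, 7.88 and 7.78 against 8.06, 8.29 and 7.95, again without overlap. Its brightest probe set differed by -0.31 ± 0.172 with overlap. The other Epha7 probe sets, at mean levels of 8.33 and 6.39, differed by 0.02 ± 0.101 and 0.23 ± 0.118. Epha5 differed by -0.16 ± 0.0998 without overlap and the dim Epha6 by -0.27 ± 0.136. Epha8 and Epha10 had positive differences of 0.29 and 0.21, and the dim Epha1 and Epha2 differed by -0.02 and -0.10.

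EphB receptors, which mostly bind B ephrins, were read by 1 probe set per gene. Ephb3 read 5.97, 5.60 and 5.78 in the knockouts against 5.49, 5.40 and 5.46 in the wild types, wholly above by 0.34 ± 0.116 (adjusted p = 0.269). Ephb6, which lacks kinase activity, differed by 0.30 ± 0.145 and Ephb4, the partner of Efnb2 on veins, by -0.12 ± 0.128. Ephb1, the brightest, was the steadiest of them. It read 9.85, 9.94 and 9.98 in the knockouts against 9.90, 9.93 and 9.90 in the wild types, a difference of 0.01 ± 0.0952.

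Families also differed in level, with the limit that probe sets bind with different strength, so that a level ranks no transcript against another. Read by the brightest probe set of each gene, ligands ran from 3.13 to 10.3 with a median of 8.45, and receptors from 4.24 to 11.2 with a median of 8.04. The median over all genes was 7.39. Netrins had the lowest family median, 5.65, followed by EphB receptors at 6.64, and B ephrins and neuropilins the highest, at 10.2 and 9.70, although these families hold only 2 to 4 genes. EphA receptors ran from 4.24 for Epha2 to 11.2 for Epha4, and A ephrins from 3.13 for Efna4 to 10.2 for Efna2. In 7 genes, Efna4, Epha1, Epha2, Epha6, Ephb4, Ntn3 and Unc5b, no probe set reached a mean level of 5. Detection calls were not used here, so these could not be separated from background. A mean of 5 is not a limit of background. Liver and muscle genes, from tissues not sampled here, had mean levels from 3.82 to 6.42. The brightest probe sets of Sema3g (5.22), Sema6c (5.23), Ephb3 (5.62), Ntn1 (5.65) and Sema3b (5.77) also lie in that range. So do those of Efna1 (6.04), Sema3f (6.23), Robo2 (6.39) and, at its upper edge, Plxnd1 (6.42).

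**Figure D3:**
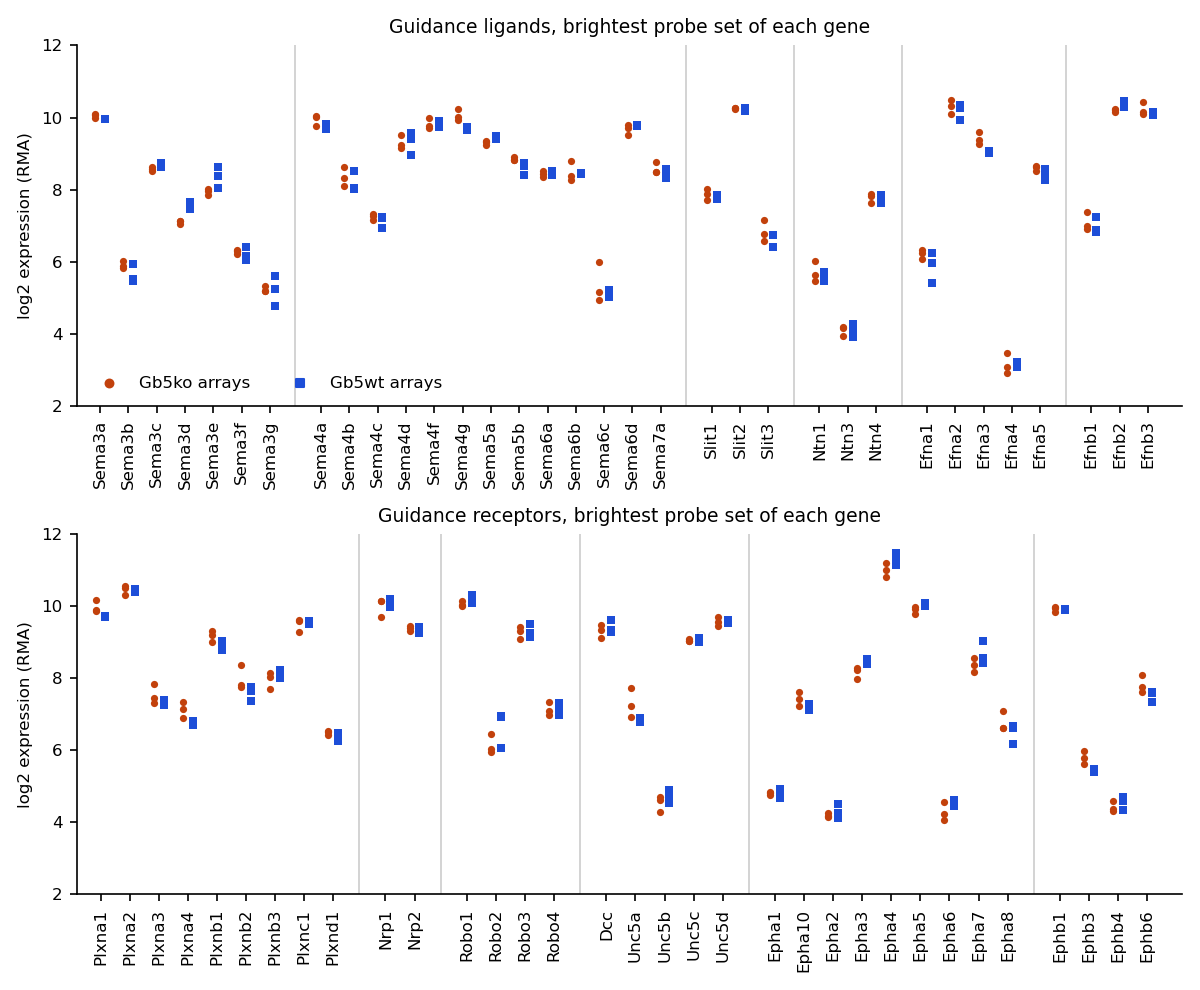
Log2 expression in each array at the brightest probe set of the 67 guidance genes, ligands above and receptors below, with families divided by vertical lines. Round points are the 3 Gb5ko arrays and squares the 3 Gb5wt arrays; values of a gene mostly lie within 1 log2 unit while genes span from about 3.13 for Efna4 to 11.2 for Epha4.

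Ligand genes had a positive difference more often than receptor genes. It was positive for 26 of 34 ligands (76.5%) and 16 of 33 receptors (48.5%), against 59.9% of all genes read the same way. Median differences were 0.08 for ligands, -0.01 for receptors and 0.05 for all genes. No test was made of this contrast, and it moved with 1 array. Relative to each gene's mean over the 6 arrays, the ligand median was 0.12 in knockout replicate 1, -0.03 and -0.01 in the other knockouts, and -0.01, -0.03 and -0.03 in the wild types. Without knockout replicate 1, 20 of 34 ligands (58.8%) and 16 of 33 receptors (48.5%) were positive, against 57.3% of all genes, and the ligand median was 0.02. Within receptors, plexin and EphA medians lay on opposite sides of 0 with any 1 array left out. EphA medians then ran from -0.20 to -0.13 and plexin medians from 0.10 to 0.26. This holds for the brightest probe sets: over all probe sets the medians were -0.01 for EphA receptors and 0.07 for plexins.

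Probe sets of the same gene often disagreed. In 45 guidance genes with 2 or more probe sets, all differences of a gene had the same sign in 19 genes, 42.2%, close to the 44.5% of 9010 such genes on the arrays. Of 140 pairs of probe sets within these genes, 76 (54.3%) had the same sign, against 57.3% of pairs over all genes. Ligand genes shared a sign in 13 of 26 and receptor genes in 6 of 19. Receptor genes had more probe sets per gene (60 over 19 genes, against 68 over 26), which by itself makes a shared sign rarer. By pairs, 35 of 62 (56.5%) in ligand genes and 41 of 78 (52.6%) in receptor genes had the same sign. The spread of mean level within a gene ran from 0.61 to 6.74 with a median of 3.42. When only probe sets with a mean level of at least 8 were kept, 8 of 12 guidance genes and 56.0% of all such genes shared a sign. The filter leaves fewer probe sets per gene, which by itself raises the share of genes with a shared sign. By pairs, 16 of 23 in guidance genes (69.6%) and 62.9% over all genes had the same sign among bright probe sets. The pair shares were thus somewhat higher than without the filter, for guidance on only 12 genes.

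Non-overlapping 95% intervals within a gene were found for 3 of the 140 pairs (2.14%, against 3.08% of pairs over all genes), in Epha4, Epha7 and Sema3c. Epha4, a receptor of both ephrin classes, had the brightest of its 5 probe sets lower and the next 3 higher. The brightest read 10.80, 11.20 and 11.00 in the knockouts against 11.47, 11.15 and 11.31 in the wild types (-0.31 ± 0.136). The next read 10.00, 9.82 and 10.23 against 9.51, 9.68 and 9.87 (0.32 ± 0.139). Both had an unadjusted p under 0.05, which made Epha4 the only guidance gene with such probe sets in opposite directions, and both had overlapping groups. The gap between them within an array was 0.80, 1.39 and 0.78 in the knockouts against 1.96, 1.46 and 1.44 in the wild types. All 3 knockouts thus had a smaller gap than any wild type.

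These gaps, brightest minus each other probe set of a gene, were fitted with limma over all 16752 such pairs on the arrays, a comparison added after the data were seen. For that Epha4 pair the gap differed by -0.63 ± 0.207 (95% interval -1.10 to -0.17), with an adjusted p of 0.238. Of 83 guidance pairs, 0 had an adjusted p under 0.05 (0.0597% of all pairs did) and 11, from 8 genes, had an unadjusted p under 0.05. That is 13.3%, against 14.9% of all pairs. The smallest p belonged to Sema3c, where the gap was 3.75, 3.86 and 3.99 in the knockouts against 4.25, 4.41 and 4.41 in the wild types, a difference of -0.49 ± 0.129 (adjusted p = 0.201). For Sema3e the gap to a probe set of mean level 7.25 differed by -0.50 ± 0.134. The sources used here do not say where each probe set lies in its transcript.

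Other genes with widely spread differences were Sema6a, from -0.25 to 0.46 over 3 probe sets, and Dcc, from -0.28 to 0.42 over 3. The extremes of Sema6a lay at mean levels of 5.21 and 4.84, and its bright probe set, at a mean level of 8.44, differed by 0.00 ± 0.0992. The probe set at 0.46 read 5.55, 4.89 and 4.76 against 4.44, 4.64 and 4.74, and without knockout replicate 1 it differed by 0.22. For Dcc the extremes lay at mean levels of 4.17 and 6.65. Epha7 spread from -0.39 to 0.23 and Sema3e from -0.40 to 0.23, each over 4 probe sets. The upper ends were 0.16 for Epha7 without knockout replicate 1 and 0.07 for Sema3e without wild-type replicate 4.

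**Figure D4:**
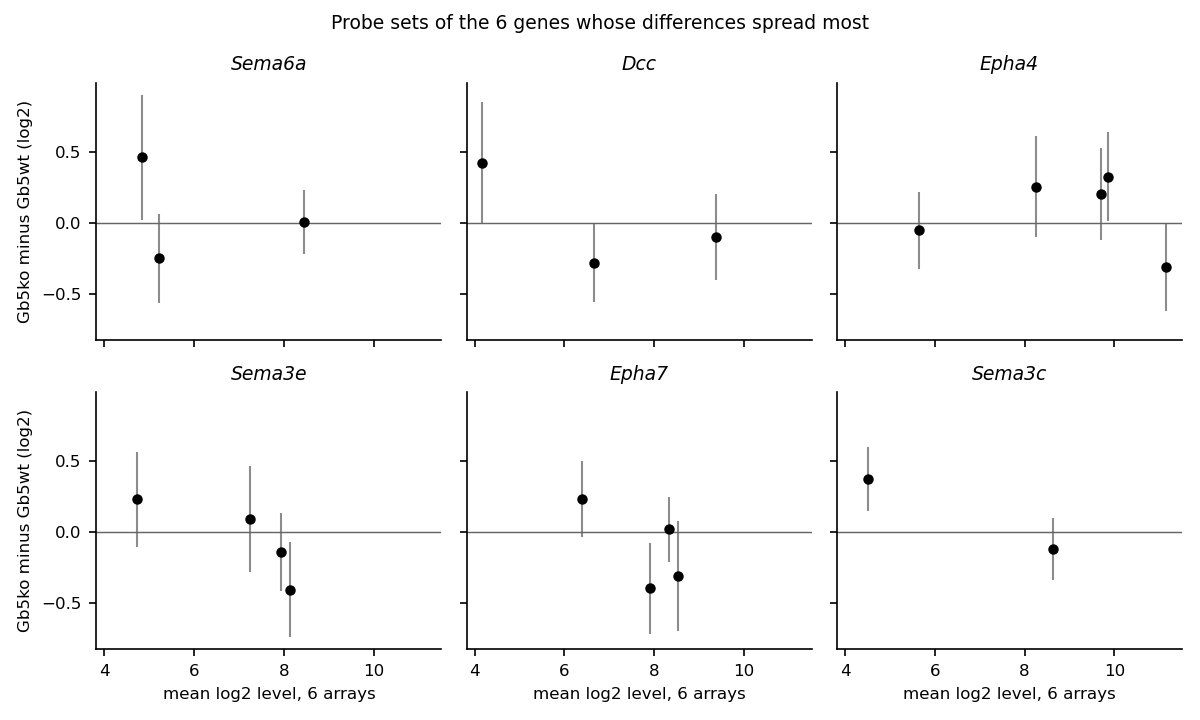
Difference (Gb5ko minus Gb5wt, log2, vertical axis) against mean log2 level over the 6 arrays for each probe set of the 6 guidance genes with the widest spread of differences; bars are 95% intervals of the limma fit. In each gene, points lie on both sides of 0; in Epha4 the brightest probe set lies at -0.31 and the next at 0.32.

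Gnb5 lies on mouse chromosome 9, as do 7 of the guidance genes with 14 probe sets. They are Sema7a, Ephb1, Sema3b, Sema3f, Plxnb1, Robo3 and Robo4. In the RefSeq gene order of GRCm38.p6 the nearest, Sema7a, is 375 annotated genes away from Gnb5. At 0 of the 14 probe sets was the unadjusted limma p under 0.05, where 14.4% of all probe sets were, and at 0 were the groups apart, where 21.5% were. Differences ran from -0.03 for Robo3 to 0.27 for Sema3b.

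Genes that act with these ligands and receptors gave 0 calls over all probe sets in limma. Of 87 measured co-receptors, adaptors and actin regulators, 15 (17.2%) had an unadjusted p under 0.05, 10 higher and 5 lower, against 15.6% of all genes. The smallest p belonged to Anks1b, a postsynaptic adaptor (-0.76 ± 0.183, adjusted p = 0.203). Among the 4 smallest were also the plexin-linked redox enzyme Mical1 (0.43 ± 0.121) and the kinase Fes (0.46 ± 0.129), both with knockouts wholly above wild types. Of 18 genes of semaphorin and plexin signalling, 6 (33.3%) were higher at that level, against 9.89% of all genes, and 0 lower, with a median of 0.19. Besides Mical1 and Fes these were Fyn, Cdk5, Dpysl5 and Dpysl4, named after their values were seen, with differences from 0.26 to 0.47. Knockout replicate 1 was the highest of the 6 arrays in each of the 6 genes, and their values without it are not given here. Each of these partner genes was read by 1 probe set, and agreement with their other probe sets is not given. Slit and netrin signalling had 0 of 9 and 0 of 9 at that level, and ephrin signalling 1 higher and 3 lower of 15.

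Markers of cell types that express guidance genes gave 0 probe sets past the adjusted threshold, and their values are set beside the guidance genes here. In bulk tissue, fewer cells of a type and less RNA per cell cannot be told apart. Sums of a list are the log2 of its summed unlogged values, so the brightest markers weigh most. The microglial sum is mostly Csf1r, with group means of 12.06 in knockouts and 11.77 in wild types. All 6 meningeal fibroblast markers read lower in knockouts (median -0.29), and their sum ran from 11.5 to 11.7 in knockouts and from 11.8 to 12.0 in wild types. All 7 measured oligodendrocyte markers read lower (median -0.25), with sums from 13.9 to 14.3 and from 14.3 to 14.5. Of 6 endothelial markers 4 read lower, with sums from 10.6 to 10.8 and from 10.6 to 11.0, and of 6 astrocyte markers 4 read lower, from 14.2 to 14.4 and from 14.4 to 14.6. Of 5 microglial markers 3 read higher, with sums from 12.2 to 12.4 and from 12.0 to 12.0, and neuronal sums ran from 15.0 to 15.1 in both groups. Both oligodendrocyte precursor markers read higher (median 0.17), as did all 4 liver and muscle markers, genes of tissues not sampled here (median 0.25, mean levels from 3.82 to 6.42), and all 4 pituitary markers (median 0.91). No marker is at 0 on this scale, and among these lists the lowest mean was 3.53 for the pituitary gene Prl. Beside these stand Sema3d at -0.47, Plxnb3 at -0.15, Efnb2 at -0.20 and Robo4 at 0.01. These guidance genes were named after their values were seen, without a fixed rule. Over all 67 guidance genes the median at the brightest probe set was 0.02, with 42 above 0. The part of cell composition in the guidance values was not tested.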

How the data were processed

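Each array has 1 deposited log2 value per probe set. RMA and Partek are named, without versions or roles, in the submitters' processing notes. RMA compresses large changes near background. No scanner file or detection call was used here. Left out were 64 control probe sets, and no further normalization was applied. The platform annotation gave 34945 probe sets 1 gene, 932 several and 9160 none. Entrez identifiers placed all 150 guidance probe sets in RefSeq (GRCm38.p6), and 0 symbols changed. The genotypes were compared in limma 3.58.1 (R 4.3.3; lmFit, eBayes; two-sided), with Benjamini-Hochberg adjustment over 45037 probe sets, 4 residual and 5.05 prior degrees of freedom and a threshold of 0.05. The fit over all probe sets was tested on simulated data with known answers. Array medians ran from 5.81 to 5.85, and the number of arrays limits precision.

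Members, lists and tests were chosen with earlier results of these data known. Full values are given for the brightest and smallest-p probe set of each family, the 6 largest rises and falls without overlap, the 6 genes with the widest spread and 6 textbook genes (Dcc, Ntn1, Robo1, Slit2, Nrp1 and Sema3a). Signalling partners are named from the 4 with the smallest p, of which 1 is not reported here. Others were named after their values were seen. Gaps between probe sets of a gene were fitted as an addition after the data were seen. P-values measure the spread between these arrays. Alternatives were a filter at a mean level of 5, repeated quantile normalization, median centring, a trend and robust prior, array weights, an adjusted threshold of 0.1, other probe sets per gene and leaving out each array. Figures were drawn with matplotlib 3.10.9.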

Additional observations from a re-analysis of the deposited data

How the results depend on the processing

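The count of 0 guidance probe sets past the adjusted threshold held under the 12 alternatives tried, including an adjusted p under 0.1, with smallest adjusted p values from 0.133 to 0.435. At an unadjusted p under 0.05, the 12 higher probe sets became 4 to 18 and the 8 lower became 3 to 9 with 1 array left out. In these fits the guidance count in either direction ran from 7 to 27 of the 150. The share of all probe sets under 0.05 in either direction ran from 9.74% to 15.0%. The higher count was 4 and the lower 3 without knockout replicate 1, and the lower was 5 without knockout replicate 3 and 4 without wild-type replicate 4 or 6. Reading each gene by 1 probe set, which tests fewer, gave 6 higher and 4 lower. That was 14.9% of the 67 guidance genes, against 15.6% of all genes. The ligand median of 0.0785 ran from 0.0176, without knockout replicate 1, to 0.124. The receptor median of -0.0138 ran from -0.0166 to 0.0160 with 1 array left out. It was 0.0106 with the filter at a mean level of 5, 0.0103 over every probe set, 0.0141 with the median over the probe sets of a gene and -0.0379 after repeated quantile normalization, and the cause was not tested. Among 401 values of 37 named probe sets under alternatives, 0 passed the adjusted threshold and 15, from 9 probe sets, had the other sign. No paired analysis was possible because replicate numbers do not recur between the genotypes. Scanner signals over background were not used here, so how far dim probe sets limit these values is unknown.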
